A study of Mus musculus with 72 samples.

Results

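The transcripts described here are those of 44 mouse genes that carry proteins and messenger RNA through the nuclear pore, out of 45321 genes with a transcript in the count tables. They were chosen from a list of names by known function, not by any measured value. The list holds 5 importin alpha adaptors, 11 import receptors and 7 export receptors of the importin beta family, 7 genes of the Ran system, and 14 genes of messenger RNA export. The last are the export receptor Nxf1 and its partner Nxt1, 8 genes of TREX, and 4 genes whose products act where the messenger leaves the pore. Of the 44 genes, 43 passed the filter on low counts and were tested among 18273 genes. Ranbp1, which encodes a Ran-binding cofactor of RanGAP1, did not. The transcript counted for it, the highest in total of its 4, had at most 2 counts in any sample. The counting step behind such low values is not given, so they are not read as absence of the transcript. No level is given for Ranbp1.

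Large cargo crosses the nuclear pore bound to soluble receptors. Importin alpha recognises a nuclear localisation signal and is itself carried by importin beta, the product of Kpnb1, while other members of the beta family bind cargo directly. The small GTPase Ran gives direction, because it is loaded with GTP by the chromatin-bound Rcc1 and made to hydrolyse it by RanGAP1 on the cytoplasmic side: RanGTP releases import cargo and stabilises export complexes. Messenger RNA leaves by another route, in which TREX, with its helicase Ddx39b and adaptor Alyref, hands the spliced messenger to Nxf1 and Nxt1, and a DEAD-box helicase with Gle1 strips the receptor off at the cytoplasmic face. The pore they cross is built on rings of the Y-complex, to which Nup133 belongs.

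The cells were mouse embryonic stem cells, and polyadenylated RNA was sequenced in control and Nup133-deficient lines at 3 days of a neuroectodermal differentiation. Controls were HM1 (Nup133+/+, XY) as biological replicates 1 and 2 and the blastocyst-derived line 1A4 (Nup133+/+, Sox1gfp/+, XY). Knockout samples were lines 14 and 19, Nup133-/- derivatives of HM1 made with CRISPR/Cas9, and the blastocyst-derived line 319 (Nup133merm/merm, Sox1gfp/+), labelled XX with 42 chromosomes and extra copies of chromosomes 8 and 12. Line 14 is labelled as having 40 chromosomes and line 19 as likely having 40. All lines had grown on mouse embryonic fibroblast feeders in serum with leukemia inhibitory factor (LIF). Feeders were removed before the day 0 collection, day 2 cells were collected in N2B27, from which LIF was left out, and the day 3 collection followed 24 hours with 1 µM all-trans retinoic acid. There were 3 biological samples for each genotype on each day, in 6 groups. Both HM1 replicates are the same line, and a knockout replicate is a different line, so the spread of a knockout group includes differences between lines.

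Gene counts per sample ranged from 16.5 M to 54.4 M (1 M is 1000000 counts). Nup133 itself lay between 180 and 323 CPM (counts scaled to a library of 1000000 after edgeR's TMM) in the 9 control samples and between 14.3 and 37.1 CPM in the 9 knockout samples. Line 19 at day 2 stood apart: it had the fewest counts, 10.1% of them fell on the gene Gm42418, and its long transcripts were low. Results that rest on it are given with and without that sample. The summed level of the 4 general pluripotency genes Pou5f1, Sox2, Sall4 and Utf1 was higher in every knockout sample at day 0. It was 2525 to 2617 CPM against 2040 to 2120 CPM in the controls. At day 2 their sums were again apart, at 1591 to 2123 CPM against 1395 to 1500 CPM, and at day 3 they overlapped (399 to 694 CPM against 497 to 553 CPM). The sums of 8 naive pluripotency genes, among them Esrrb, Klf4 and Nanog, overlapped on every day. In the knockouts their medians were 3586, 206 and 131 CPM at day 0, day 2 and day 3. Those of the controls were 3216, 330 and 241 CPM. Sums of 4 primed genes (Fgf5, Otx2, Pou3f1 and Dnmt3b) overlapped on every day. Those of 4 endoderm genes were apart at day 0 only (4.0 to 5.9 CPM against 6.5 to 12.1 CPM). The 9 fibroblast genes, markers of residual feeders, summed to less in the knockouts at day 2 (81.0 to 101 CPM against 115 to 171 CPM). Their medians were 152 against 207 CPM at day 0 and 120 against 222 CPM at day 3, where the ranges overlapped, and none of the 9 was at 0 throughout. The 6 neural progenitor genes (Sox1, Pax6, Nes, Zic1, Hoxb1 and Neurog2) summed to between 78.6 and 162 CPM in the day 2 knockouts and between 198 and 253 CPM in the day 2 controls. At day 3 they summed to between 352 and 917 CPM in the knockouts and between 254 and 320 CPM in the controls. The part of these marker differences in the results below was not tested.

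Promoters of 4 genes on which the results turn are shown first: Ddx39b, which differed between genotypes, and Alyref, Gle1 and Kpna2, which fell during differentiation. Each window runs from 250 bases before to 50 bases after the RefSeq transcription start (GRCm38.p6) and is written on the strand of the gene. Capitals mark matches to the motifs searched, which were CCGGAAG (an Ets-factor site), CCAAT (the CCAAT box), CACGTG (an E-box) and AGGTCA (a nuclear receptor half-site), each on both strands. The Ddx39b window is chr17:35241496-35241795 on the plus strand, that of Alyref chr11:120598316-120598615 on the minus strand, that of Gle1 chr2:29935159-29935458 on the plus strand, and that of Kpna2 chr11:106999476-106999775 on the minus strand.
Ddx39b: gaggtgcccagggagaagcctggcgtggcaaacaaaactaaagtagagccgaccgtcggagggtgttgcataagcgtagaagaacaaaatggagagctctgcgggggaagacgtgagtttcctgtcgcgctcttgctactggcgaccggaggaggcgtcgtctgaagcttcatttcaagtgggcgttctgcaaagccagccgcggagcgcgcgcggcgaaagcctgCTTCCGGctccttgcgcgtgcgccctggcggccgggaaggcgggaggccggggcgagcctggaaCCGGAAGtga
Alyref: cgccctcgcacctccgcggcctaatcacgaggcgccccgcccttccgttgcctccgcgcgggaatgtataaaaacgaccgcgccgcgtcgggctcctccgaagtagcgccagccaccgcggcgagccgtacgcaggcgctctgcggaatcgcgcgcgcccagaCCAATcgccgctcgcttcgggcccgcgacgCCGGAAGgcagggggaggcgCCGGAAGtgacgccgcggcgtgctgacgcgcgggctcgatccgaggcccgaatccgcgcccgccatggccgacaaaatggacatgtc
Gle1: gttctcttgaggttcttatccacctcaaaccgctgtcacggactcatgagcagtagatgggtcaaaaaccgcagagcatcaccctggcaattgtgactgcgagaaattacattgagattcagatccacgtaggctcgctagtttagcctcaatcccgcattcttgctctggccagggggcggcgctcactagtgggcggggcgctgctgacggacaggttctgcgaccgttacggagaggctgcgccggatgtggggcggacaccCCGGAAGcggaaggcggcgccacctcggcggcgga
Kpna2: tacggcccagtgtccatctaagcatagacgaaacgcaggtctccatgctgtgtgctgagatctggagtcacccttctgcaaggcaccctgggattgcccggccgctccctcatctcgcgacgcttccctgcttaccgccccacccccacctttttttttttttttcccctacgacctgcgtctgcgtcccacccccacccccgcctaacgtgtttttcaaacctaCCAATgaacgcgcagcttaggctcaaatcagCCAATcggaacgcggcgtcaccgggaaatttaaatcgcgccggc
Ddx39b had an Ets-site match 24 bases before the start, in the reverse orientation (CTTCCGG), and another 41 bases after it. Alyref had matches 57 and 37 bases before the start, and Gle1 had 1 match 16 bases after it. Kpna2 held CCAAT 25 bases before and 7 bases after the start, and Alyref 87 bases before it. A RefSeq window was found for 35 of the 44 genes. Of these, 7 held CCGGAAG (20.0%, against 8.86% of all 32851 windows), 6 held CACGTG (17.1% against 7.15%), 15 held CCAAT (42.9% against 37.4%) and 1 held AGGTCA (2.86% against 16.3%). These are matches of letters, and no binding was measured.

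Across the transport genes, the difference between genotypes that passed the test on more than 1 day was that of Ddx39b, the helicase of TREX, whose transcript was higher in the knockouts at day 2 and day 3 (1.81-fold and 1.58-fold). Thoc1, another TREX gene, was also higher at day 3 (1.53-fold). No importin, exportin or Ran-system gene passed the test against the controls on any day in the fit of all samples. At day 0, 0 of 43 genes were called by edgeR's quasi-likelihood test with Benjamini-Hochberg adjustment over all genes tested (adjusted p below 0.05), where 0.854% of all genes were. Of the 43, 4 had an unadjusted p below 0.05, and DESeq2 called 1. At day 2, 1 of 43 (2.33%) was called, against 1.60% of all genes, or 0.635% counting higher calls alone. At day 3, 2 of 43 (4.65%) were called, both higher, against 5.19% of all genes, or 2.75% counting higher calls alone. The shares called among the transport genes thus lay near those of all genes. Bulk RNA gives a level per unit of RNA, so fewer cells that express a gene and less transcript per cell cannot be told apart.

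**Figure D1:**
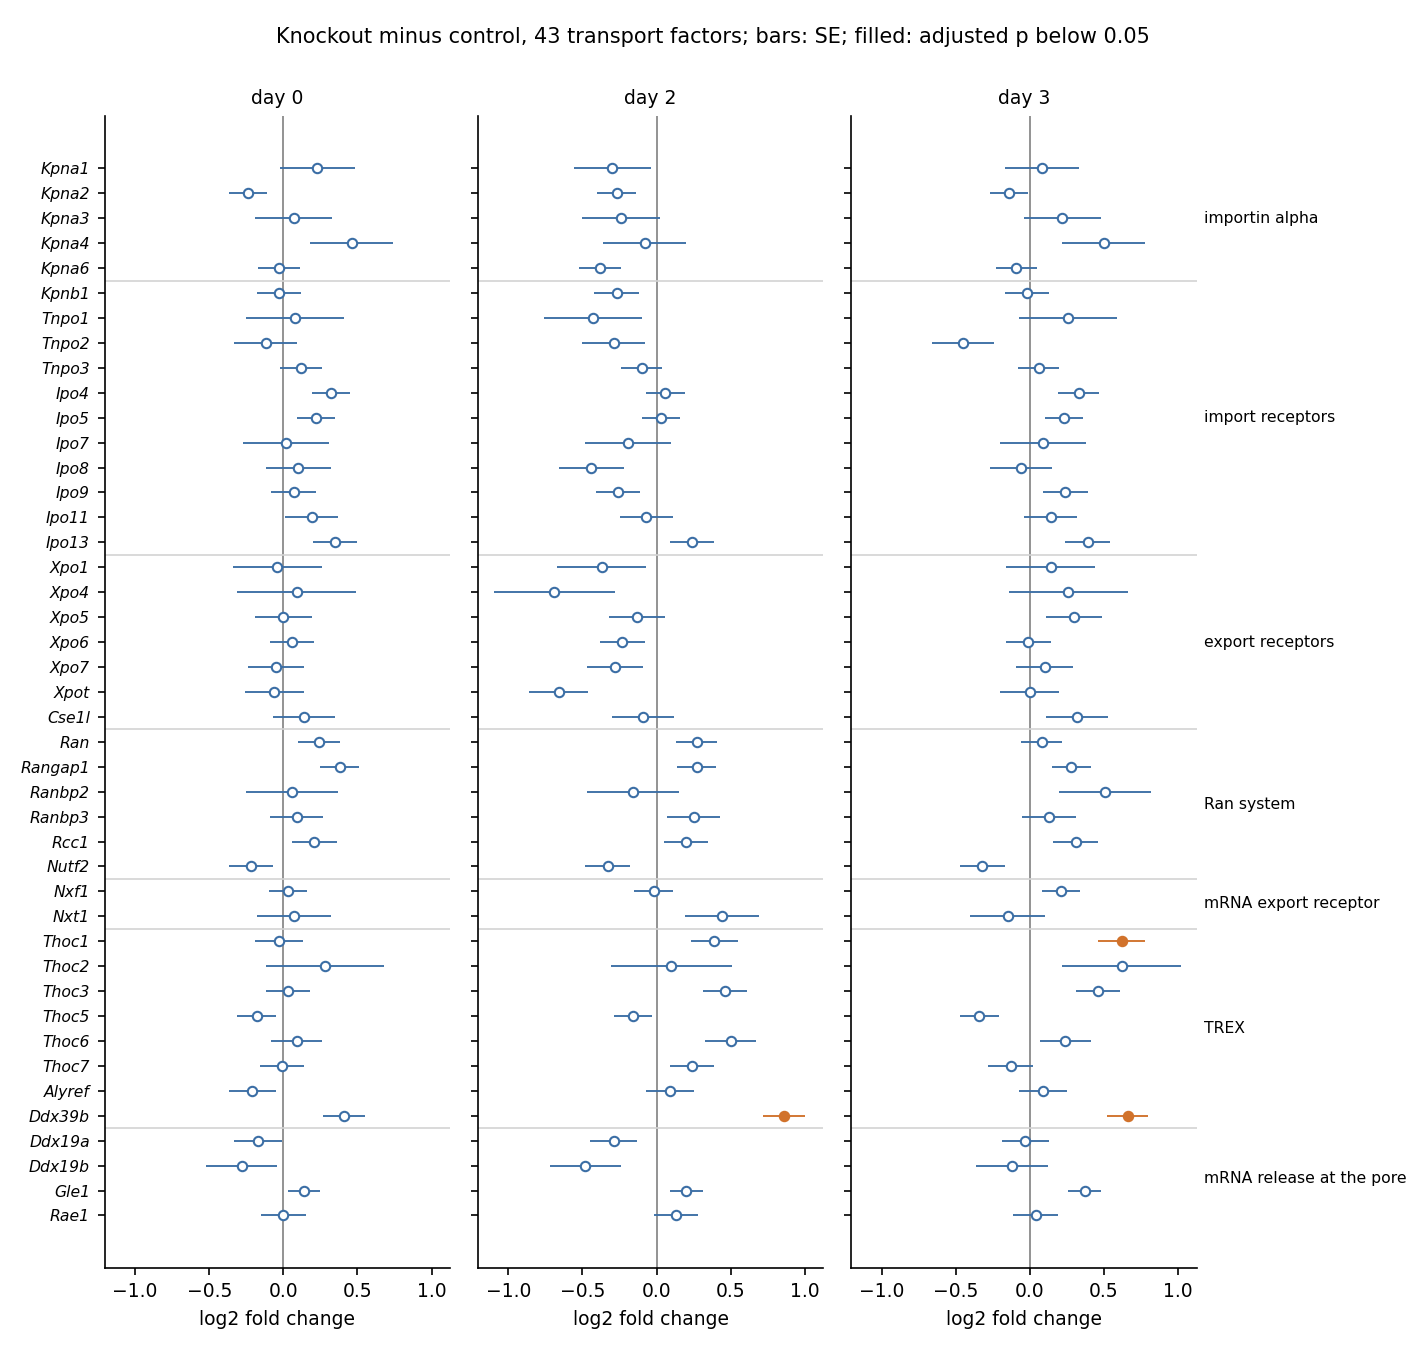
Log2 fold change of knockout against control (x axis) for the 43 tested genes, grouped by role, at day 0, day 2 and day 3. Bars are standard errors of the edgeR fit, and filled points have an adjusted p below 0.05: Ddx39b at day 2 and both Ddx39b and Thoc1 at day 3.

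Without the day 2 sample of line 19, standard errors of the genes named here were smaller and more genes were called, with 18911 genes tested. Kpna4, Rangap1 and Ddx39b were then called higher at day 0 (3 of 43, against 2.00% of all genes). At day 2 Ddx39b alone was called (against 2.08% of all genes). At day 3 Kpna4, Ipo13, Ranbp2, Thoc1, Thoc3, Ddx39b and Gle1 were called higher and Thoc5 lower, 8 of 43 against 15.8% of all genes. The sample left out was from day 2, and the fold changes at day 0 and day 3 moved little (Ddx39b from 0.41 to 0.42 and from 0.66 to 0.65).

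The knockout and control samples did not overlap for 10 of 43 genes at day 0 (23.3%, against 17.8% of all genes), 9 at day 2 (20.9%, against 21.7%) and 16 at day 3 (37.2%, against 35.2%). Of the 16 genes at day 3, 15 had the knockouts above the controls, namely Kpna4, Tnpo3, Ipo4, Ipo13, Xpo5, Cse1l, Ran, Ranbp2, Nxf1, Thoc1, Thoc2, Thoc3, Thoc6, Ddx39b and Gle1. Thoc5 was the exception. All knockout samples lay above all control samples for 17.6% of all genes at day 3, against 15 of the 43. Set against the controls of its own background, line 14 had 36 of the 43 genes higher at day 3 (median log2 difference 0.15) and line 19 had 34 (median 0.28). Line 319 had 21 higher and 22 lower. The median over all genes tested lay between -0.01 and 0.01 in these 3 comparisons. At day 0, 36 genes were higher in line 14, 30 in line 19 and 16 in line 319. At day 2 the counts were 18 higher and 25 lower in line 14 (median -0.01), 17 and 26 in line 19 (median -0.53) and 23 and 20 in line 319 (median 0.04). Whether the knockout difference depended on the background was tested as an interaction over all days, a test added after these values were seen: 0 of 43 genes were called, 3 had an unadjusted p below 0.05, and 3.54% of all genes were called. Line 319 was the only blastocyst-derived knockout line, and its days stood as its samples in this test. Background therefore cannot be told apart from that line, its Nup133 allele or its chromosomes.

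The 5 importin alpha genes encode the adaptors that read the classical nuclear localisation signal, and their transcripts occur in different amounts. Per length, Kpna2 was the most abundant in the day 0 controls, with 130.0 ± 2.7 CPM per 1000 bases (SD, n = 3). It was followed by Kpna3 at 65.9 ± 4.5, Kpna1 at 36.3 ± 2.4, Kpna6 at 30.3 ± 2.9 and Kpna4 at 20.2 ± 0.5 CPM per 1000 bases. The ranges of Kpna1 (33.5 to 38.2) and Kpna6 (28.5 to 33.6) met, while the other neighbours in this order did not. By day 3 the controls stood at 90.0 ± 9.7 for Kpna2 and 44.5 ± 2.2 for Kpna3, with Kpna6 (23.4 to 24.4) and Kpna1 (19.8 to 24.3) overlapping.

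Kpna2 (chr11:106988629-106999541, 11 exons) measured 273, 262 and 266 CPM in the day 0 controls, in the order HM1 replicate 1, HM1 replicate 2 and line 1A4 that is kept throughout. It measured 222, 222 and 236 CPM in lines 14, 19 and 319. The knockouts lay below the controls at day 0, with a log2 fold change of -0.24 ± 0.13 (SE, adjusted p = 0.56), which did not pass the test. At day 2 the controls had 254, 257 and 216 CPM and the knockouts 185, 195 and 224 CPM, and at day 3 the values were 205, 184 and 166 CPM against 152, 176 and 175 CPM. The groups overlapped on both of these days. From day 2 to day 3 in the controls Kpna2 fell, with a log2 fold change of -0.39 ± 0.13 (adjusted p = 0.038).

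Kpna4 (chr3:69067149-69127113, overlapped by the models Gm22009 and Gm37558) measured 183, 175 and 175 CPM in the day 0 controls and 268, 248 and 219 CPM in lines 14, 19 and 319. The controls had 182, 184 and 188 CPM at day 2, lines 14 and 319 had 218 and 236 CPM, and line 19 had 74.0 CPM. At day 3 the controls had 173, 152 and 169 CPM and the knockouts 218, 271 and 207 CPM. The knockouts thus lay above every control at day 0 and day 3, and at day 2 only line 19 lay below. The log2 fold change was 0.46 ± 0.28 at day 0 (adjusted p = 0.64) and 0.50 ± 0.28 at day 3 (adjusted p = 0.32). Without the day 2 sample of line 19 it was 0.47 ± 0.10 (adjusted p = 0.031) and 0.48 ± 0.10 (adjusted p = 0.0087). Over the 17 alternatives its adjusted p ranged from 0.031 to 1 (day 0) and from 0.0087 to 0.64 (day 3).

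Kpna1 (chr16:35978750-36037131, overlapped on the other strand by Gm15564) stood at 187, 169 and 192 CPM in the day 0 controls, at 124, 133 and 124 CPM at day 2 and at 123, 121 and 99.8 CPM at day 3. In lines 14, 19 and 319 it stood at 234, 227 and 184 CPM at day 0, at 122, 51.8 and 136 CPM at day 2 and at 118, 147 and 100.2 CPM at day 3. Both genotypes were lower at day 2 than at day 0 without overlap. In the knockouts Kpna1 fell (log2 fold change -1.05 ± 0.26, adjusted p = 0.0052), and without line 19 at day 2 the fall was -0.70 ± 0.14 (adjusted p = 0.0014). In the controls the change was -0.53 ± 0.25 (adjusted p = 0.12), and -0.51 ± 0.13 (adjusted p = 0.0037) without that sample.

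Kpna3 (chr14:61365211-61439874) measured 264, 252 and 288 CPM in the day 0 controls, 229, 244 and 232 CPM at day 2 and 191, 177 and 175 CPM at day 3. The knockouts measured 295, 282 and 264 CPM at day 0, 222, 93.3 and 292 CPM at day 2 and 190, 233 and 207 CPM at day 3. Kpna6 (chr4:129643980-129672767) measured 164, 163 and 192 CPM in the day 0 controls, 175, 175 and 186 CPM at day 2 and 134, 140 and 135 CPM at day 3. Its knockout values were 160, 168 and 178 CPM at day 0, 141, 98.7 and 175 CPM at day 2 and 123, 128 and 134 CPM at day 3. Neither gene passed the test in a comparison of genotypes or between days in the fit of all samples.

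As a description, the make-up of the importin alpha pool was computed per length. Kpna2 held 46.0% ± 1.5 (SD, n = 3) of the summed level of the 5 genes in the day 0 controls and 39.6% ± 2.3 in the day 0 knockouts. Kpna4 held 7.1% ± 0.3 and 9.9% ± 0.8. At day 3 the shares were 45.0% ± 1.7 against 39.6% ± 2.0 for Kpna2 and 9.4% ± 0.8 against 12.7% ± 1.1 for Kpna4. The groups did not overlap for either gene at day 0 or day 3. At day 2 they did overlap, with Kpna2 at 43.7% to 48.3% in the controls and at 41.1% to 61.7% in the knockouts, where line 19 had the highest share. Shares of 1 pool are tied to each other, and no test was made on them. Kpna2 lies on chromosome 11, whose median gene was also lower in the knockout lines. At day 0 that median was -0.24, -0.22 and -0.14 log2 units in lines 14, 19 and 319. Its part in the shares was not tested.

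**Figure D2:**
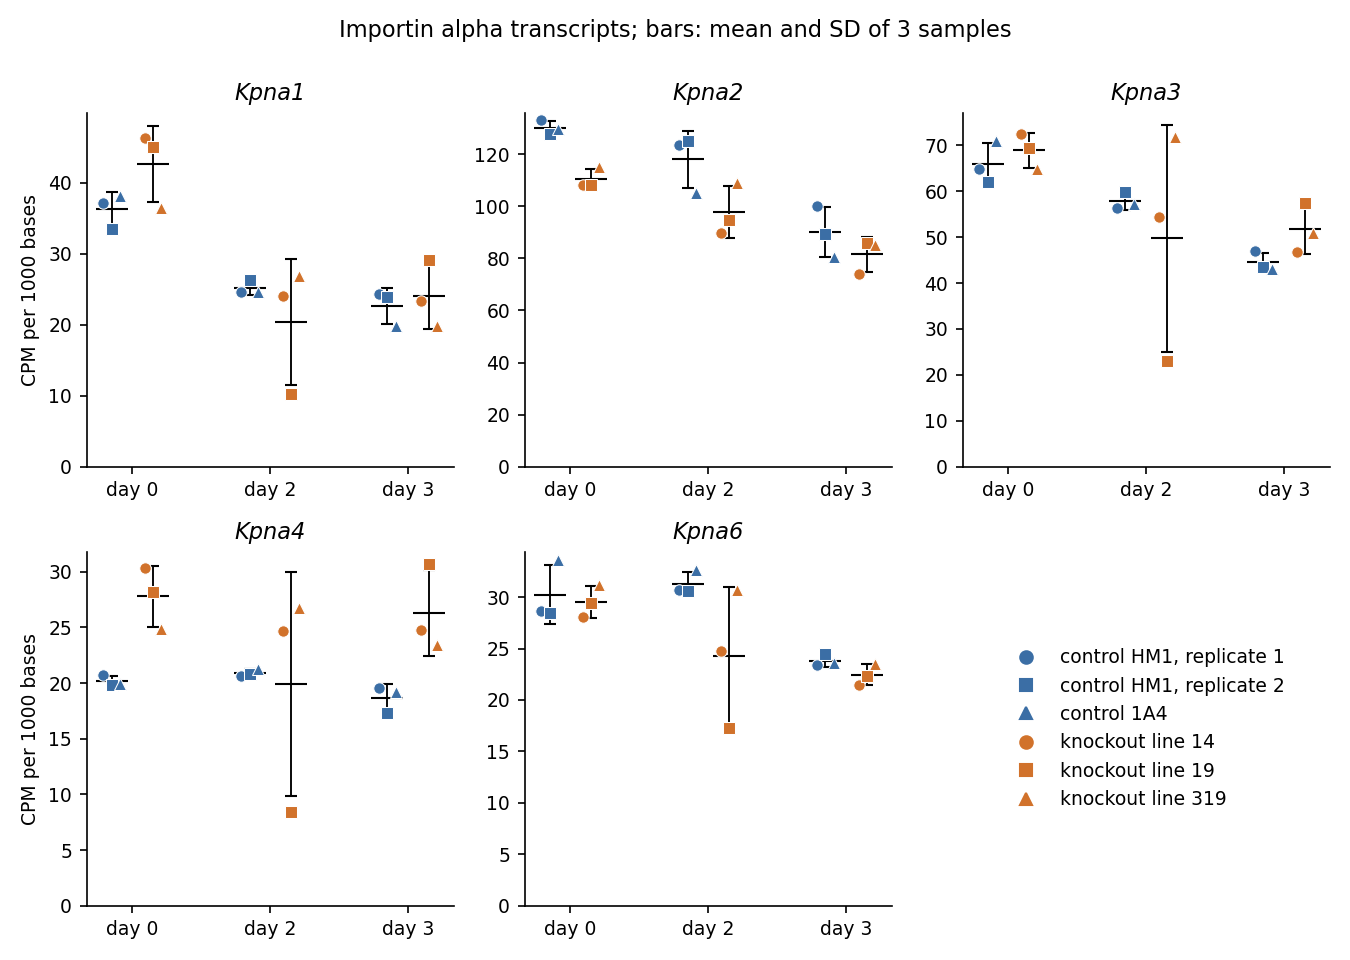
Level of the 5 importin alpha genes in CPM per 1000 bases of transcript (y axis, from 0, with a separate scale per gene) in each sample at day 0, day 2 and day 3. Black bars give the mean and SD of 3 samples. Line 19 at day 2 lies below every other sample for Kpna1, Kpna3, Kpna4 and Kpna6.

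Among the 11 import receptors of the importin beta family, none passed the test against the controls in the fit of all samples. Their log2 fold changes ran from -0.12 to 0.35 (day 0), from -0.44 to 0.24 (day 2) and from -0.45 to 0.39 (day 3). Kpnb1, importin beta itself (chr11:97159714-97187881, 22 exons, overlapped on the other strand by Gm11583), had the highest level per length, 329 ± 21 CPM per 1000 bases in the day 0 controls, followed by Ipo5 at 230.0. Kpnb1 measured 2074, 1906 and 1829 CPM in the day 0 controls and 2004, 1933 and 1759 CPM in the knockouts. At day 2 the controls had 1725, 1685 and 1485 CPM and the knockouts 1429, 1015 and 1614 CPM, and at day 3 the values were 1243, 1191 and 1279 CPM against 1239, 1290 and 1125 CPM. The genotypes overlapped on all 3 days. Kpnb1 fell from day 0 to day 2 in the knockouts (log2 fold change -0.49 ± 0.15, adjusted p = 0.022) and still did so, by 0.29 ± 0.10 (adjusted p = 0.031), without line 19 at day 2.

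Ipo4, which imports histones and ribosomal proteins (chr14:55625400-55635957, overlapped by Gm49378), measured 142, 141 and 138 CPM in the day 0 controls and 160, 164 and 201 CPM in the knockouts. At day 2 the values were 119, 119 and 117 CPM against 137, 125 and 111 CPM, and at day 3 they were 91.2, 88.5 and 95.8 CPM against 133, 117 and 98.3 CPM. All knockout samples lay above all control samples at day 0 and day 3. The log2 fold change was 0.32 ± 0.13 at day 0 (adjusted p = 0.39) and 0.33 ± 0.14 at day 3 (adjusted p = 0.16), and neither passed the test.

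Tnpo3, the receptor of SR splicing factors (chr6:29540827-29609887, overlapped by Irf5 on the other strand), had like values at day 0 and day 2 in the controls. It measured 315, 293 and 324 CPM in the day 0 controls, 316, 327 and 349 CPM at day 2 and 230, 221 and 232 CPM at day 3. It fell from day 2 to day 3 in the controls, with a log2 fold change of -0.54 ± 0.14 (adjusted p = 0.014). The knockouts measured 334, 337 and 340 CPM at day 0, 316, 224 and 389 CPM at day 2 and 235, 239 and 235 CPM at day 3. Their change over the same step was -0.38 ± 0.14 (adjusted p = 0.053), and -0.57 ± 0.09 (adjusted p = 0.00027) without line 19 at day 2. Ipo5, an importer of ribosomal and core histone proteins, also fell over this step in the controls (log2 fold change -0.39 ± 0.13, adjusted p = 0.039). Ipo4 and Ipo7 fell from day 0 to day 2 in the knockouts, by 0.50 ± 0.14 and 0.89 ± 0.30 on the log2 scale, and by 0.49 ± 0.13 and 0.49 ± 0.16 without line 19 at day 2.

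The 7 export receptors had log2 fold changes between -0.06 and 0.14 at day 0, between -0.69 and -0.09 at day 2 and between -0.01 and 0.32 at day 3, and none was called on any of these days. Xpo1, the receptor of leucine-rich export signals (chr11:23256041-23298249, 25 exons), was the most abundant per length at 155 ± 13 CPM per 1000 bases in the day 0 controls. Cse1l, which returns importin alpha to the cytoplasm, followed at 119. Xpo1 measured 914, 862 and 1015 CPM in the day 0 controls, 859, 907 and 929 CPM at day 2 and 651, 597 and 636 CPM at day 3. Its knockout values were 969, 973 and 750 CPM at day 0, 787, 284 and 1049 CPM at day 2 and 568, 800 and 705 CPM at day 3. The genotypes overlapped on every day.

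Xpot exports transfer RNA (chr10:121587380-121626332, overlapped by Gm24330). It was the export receptor with the largest called change between days in the controls. It measured 222, 227 and 281 CPM at day 0, 306, 335 and 332 CPM at day 2 and 186, 184 and 195 CPM at day 3. In the knockouts it measured 244, 233 and 220 CPM at day 0, 243, 125 and 251 CPM at day 2 and 191, 208 and 166 CPM at day 3. The controls were thus highest at day 2, where every knockout sample lay below them. The fall from day 2 to day 3 in the controls was -0.78 ± 0.20 (adjusted p = 0.01). The difference between genotypes at day 2 was -0.66 ± 0.20 (adjusted p = 0.097), and -0.40 ± 0.12 (adjusted p = 0.10) without line 19. DESeq2 called it. The change of that difference was not called in either step (adjusted p = 0.70 from day 0 to day 2 and 0.56 from day 2 to day 3). Xpo5, the exporter of microRNA precursors, fell from day 2 to day 3 in the controls (log2 fold change -0.58 ± 0.19, adjusted p = 0.04).

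The 6 tested genes of the Ran system had log2 fold changes between -0.22 and 0.38 at day 0, between -0.33 and 0.27 at day 2 and between -0.32 and 0.51 at day 3. Ran (chr5:129020069-129024323, 7 exons) was the most abundant per length, at 291 ± 8 CPM per 1000 bases in the day 0 controls. It measured 713, 682 and 677 CPM in those samples and 819, 791 and 835 CPM in the knockouts. At day 2 the controls had 564, 555 and 509 CPM and the knockouts 541, 833 and 590 CPM, and at day 3 the values were 484, 476 and 496 CPM against 505, 513 and 524 CPM. The knockouts lay above the controls without overlap at day 0 and day 3. The log2 fold changes, 0.24 ± 0.14 (adjusted p = 0.62) and 0.08 ± 0.14 (adjusted p = 0.78), did not pass the test.

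Rangap1, which encodes the GTPase-activating protein of Ran (chr15:81704248-81745530, overlapped on the other strand by Zc3h7b), had the smallest p-value of the 43 genes at day 0. It measured 341, 304 and 336 CPM in the day 0 controls and 419, 408 and 456 CPM in lines 14, 19 and 319. The day 2 values were 362, 328 and 367 CPM against 369, 452 and 450 CPM, and at day 3 they were 264, 238 and 348 CPM against 321, 325 and 381 CPM. The groups did not overlap at day 0 and day 2 and overlapped at day 3 through line 1A4. At day 0 the difference was 0.38 ± 0.13 on the log2 scale (adjusted p = 0.21), and it was called under 2 of 17 alternatives, with adjusted p from 0.042 to 0.80. It was 0.39 ± 0.09 (adjusted p = 0.045) without line 19 at day 2.

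Rcc1, the nucleotide exchange factor that keeps RanGTP high around chromatin (chr4:132331919-132353605), fell from day 0 to day 2 in both genotypes. Its locus overlaps Snhg3 and the small nucleolar RNA genes Snora73a and Snora73b, so its level is uncertain. It measured 252, 239 and 254 CPM in the day 0 controls, 172, 171 and 174 CPM at day 2 and 129, 121 and 155 CPM at day 3. The knockouts measured 324, 296 and 249 CPM, then 197, 234 and 166 CPM, and then 182, 175 and 147 CPM. The log2 fold change from day 0 to day 2 was -0.53 ± 0.15 in the controls (adjusted p = 0.011) and -0.54 ± 0.15 in the knockouts (adjusted p = 0.0094). Of the 43 genes, Rcc1 had the smallest p-value for a knockout difference that depended on background (log2 difference -0.45 ± 0.14 between blastocyst-derived and HM1-derived lines, adjusted p = 0.089).

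Nxf1, the general receptor of messenger RNA export (chr19:8757073-8770922, 20 exons), was the only member called lower in both steps of the controls in the fit of all samples. It measured 264, 244 and 257 CPM at day 0, 196, 201 and 194 CPM at day 2 and 143, 131 and 153 CPM at day 3. No sample of a day overlapped with a sample of the next. Control levels of many other members also fell in both steps without overlap, and none of these was called in both. Among them were Kpna3, Kpnb1, Ipo4, Rcc1, Thoc3, Ran, Ddx39b and Rae1. The share of all genes that did so was not computed. The log2 fold changes of Nxf1 were -0.37 ± 0.13 (adjusted p = 0.034) and -0.47 ± 0.13 (adjusted p = 0.016). With 1 replicate left out, the first call held in 2 of 6 fits and the second in 3 of 6. Without line 19 at day 2, more members were called lower in each of these steps. The knockouts measured 265, 272 and 242 CPM, then 183, 232 and 167 CPM, and then 157, 169 and 167 CPM, with changes of -0.42 ± 0.13 (adjusted p = 0.018) and -0.24 ± 0.13 (adjusted p = 0.16). Between genotypes Nxf1 had log2 fold changes of 0.03 at day 0, -0.02 at day 2 and 0.21 at day 3, none was called, and the sign at day 0 and day 2 changed between alternatives (-0.02 to 0.09 and -0.17 to 0.10). Its partner Nxt1 fell from day 2 to day 3 in the knockouts (log2 fold change -0.67 ± 0.25, adjusted p = 0.049). That call rests on line 19, where Nxt1 stood at 85.1 CPM at day 2 against 31.6 to 47.9 CPM in the other knockout samples of day 0 and day 2, and without this sample the change was -0.18 ± 0.13 (adjusted p = 0.33).

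TREX held the genes called between genotypes. Ddx39b (also UAP56), the ATPase that loads the complex on spliced messengers, lies at chr17:35241746-35253707 on the plus strand with 10 exons in the transcript counted. It was the most abundant TREX gene per length, at 148 ± 10 CPM per 1000 bases in the day 0 controls. The controls measured 454, 399 and 408 CPM at day 0, 331, 330 and 332 CPM at day 2 and 241, 225 and 271 CPM at day 3. Lines 14, 19 and 319 measured 563, 547 and 567 CPM at day 0, 509, 736 and 555 CPM at day 2 and 407, 358 and 401 CPM at day 3. Every knockout sample lay above every control sample of its day. The log2 fold change was 0.41 ± 0.14 at day 0 (adjusted p = 0.23), 0.86 ± 0.14 at day 2 (adjusted p = 0.0085) and 0.66 ± 0.14 at day 3 (adjusted p = 0.015).

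The day 2 difference of Ddx39b was smaller without line 19, at 0.67 ± 0.09 (adjusted p = 0.0035). Without that sample the gene was also called at day 0 (0.42 ± 0.08, adjusted p = 0.02) and at day 3 (0.65 ± 0.08, adjusted p = 0.00063). Over 17 alternatives the log2 fold change ranged from 0.67 to 0.96 (day 2) and from 0.60 to 0.74 (day 3), with adjusted p from 2.5e-07 to 0.43 and from 0.00012 to 0.19. The call was lost when HM1 replicate 1, HM1 replicate 2 or line 1A4 was left out (adjusted p = 0.15, 0.15 and 0.052 at day 2, and 0.15, 0.19 and 0.054 at day 3) and at day 3 when line 14 was (adjusted p = 0.053). Fitting HM1 with lines 14 and 19, and no blastocyst-derived line, also ended it (adjusted p = 0.053 at day 2 and 0.058 at day 3) as did fitting day 2 by itself (adjusted p = 0.43), so that Ddx39b was called in 12 of 17 alternatives on each of these days. Set against the controls of its own background, each line was higher: line 14 by 0.40, 0.62 and 0.80 log2 units at day 0, day 2 and day 3, line 19 by 0.36, 1.15 and 0.62, and line 319 by 0.48, 0.74 and 0.56. The median over the genes of chromosome 17 lay between -0.11 and 0.15 in these comparisons. The change of the difference from day 0 to day 2 was 0.45 ± 0.20 (adjusted p = 0.68), so the days were not shown to differ.

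The files hold 6 transcripts of Ddx39b, and the 3 long protein-coding ones have nearly the same counts. The ratio of mean levels was 0.41, 0.86 and 0.66 on the log2 scale at the 3 days for each of these. For 3 transcripts of fewer exons the ratio was between 0.29 and 0.41 at day 0, 0.41 to 0.57 at day 2 and between 0.61 and 0.70 at day 3. The locus also holds the models Gm25128, Gm22589, Mir8094 and Mir6975 on the same strand. Ddx39, the paralog whose product also serves as a messenger export helicase, measured 454, 416 and 471 CPM in the day 0 controls, 291, 292 and 322 CPM at day 2 and 178, 172 and 223 CPM at day 3. In the knockouts it measured 528, 431 and 389 CPM, then 318, 383 and 275 CPM, and then 223, 164 and 175 CPM. The genotypes overlapped on all 3 days for Ddx39 and on none for Ddx39b.

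**Figure D3:**
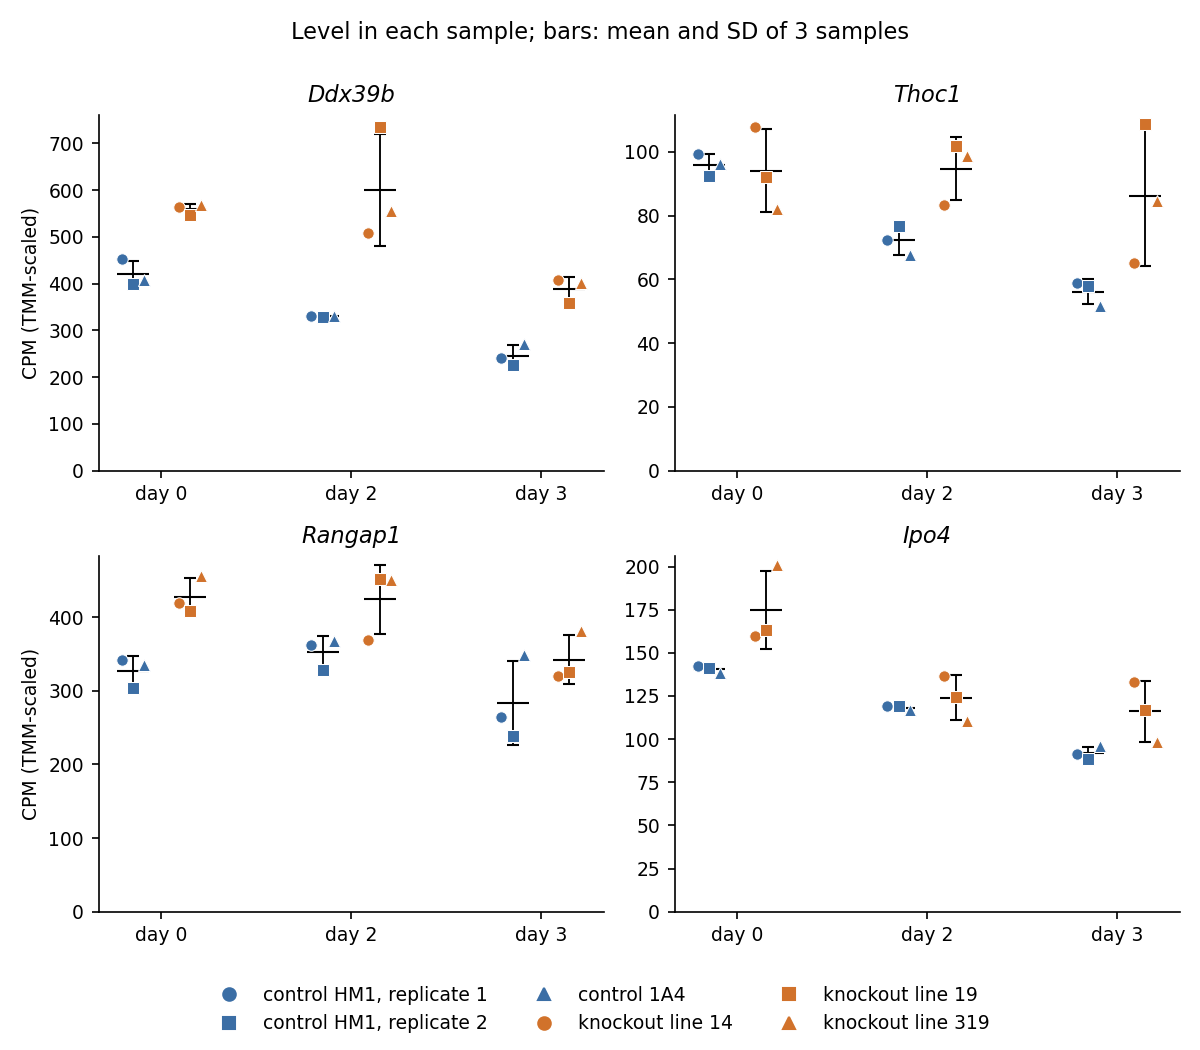
Level in CPM (y axis, from 0, with a separate scale per gene) of Ddx39b, Thoc1, Rangap1 and Ipo4 in each control and knockout sample at day 0, day 2 and day 3. Black bars give the mean and SD of 3 samples. The Ddx39b values of the 3 knockout lines lie above the 3 control values on each day, and those of Thoc1 do so at day 2 and day 3.

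Thoc1, a subunit of the THO core of TREX (chr18:9957906-9995489, 21 exons, overlapped on the other strand by Usp14), measured 99.3, 92.4 and 96.3 CPM in the day 0 controls and 108, 92.2 and 82.1 CPM in the knockouts. At day 2 the controls had 72.5, 76.7 and 67.6 CPM and the knockouts 83.4, 102 and 98.7 CPM. At day 3 the values were 59.0, 57.9 and 51.7 CPM against 65.1, 109 and 84.5 CPM. The groups overlapped at day 0 and were apart at day 2 and day 3, with line 14 nearest to the controls. Thoc1 was called at day 3 (log2 fold change 0.62 ± 0.16, adjusted p = 0.042), and the day 2 difference of 0.39 ± 0.16 (adjusted p = 0.20) did not pass. It was called at day 3 in 6 of 17 alternatives, with adjusted p from 0.0085 to 0.24. Leaving out line 14 kept the call (0.80 ± 0.13, adjusted p = 0.015), while leaving out line 19 (0.41 ± 0.14, adjusted p = 0.097), line 319 (adjusted p = 0.066) or any control series (adjusted p = 0.18 to 0.24) ended it.

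Of the other TREX genes, Thoc3 had a log2 fold change of 0.46 ± 0.15 at day 3 (adjusted p = 0.082) and Thoc5 one of -0.34 ± 0.13 (adjusted p = 0.13). Both were called without line 19 at day 2 (0.45 ± 0.08 with adjusted p = 0.0037, and -0.35 ± 0.07 with adjusted p = 0.0086). Thoc2 is on the X chromosome, and line 319 is labelled XX. In line 319 it was 0.54, 1.20 and 1.00 log2 units above line 1A4 at day 0, day 2 and day 3, where the median of X-linked genes was 0.68, 0.55 and 0.46. In line 19, derived from the XY line HM1, Thoc2 differed from its own controls by 0.26, -1.79 and 0.75, where the X-linked median was 0.02, -0.37 and 0.20, and in line 14 by 0.06, 0.00 and 0.14. Thoc6, counted on a transcript with a retained intron, and Thoc7 were not called in a comparison of genotypes.

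Alyref, the adaptor that bridges TREX and Nxf1 (chr11:120592121-120598365, 6 exons), had the largest fall of the transport genes from day 0 to day 2 in the controls. It measured 295, 288 and 198 CPM at day 0, 154, 144 and 125 CPM at day 2 and 126, 121 and 123 CPM at day 3. Every sample of day 0 lay above every sample of day 2. The fall was -0.87 ± 0.16 on the log2 scale (adjusted p = 0.00065). In the knockouts Alyref measured 261, 237 and 179 CPM, then 127, 197 and 130 CPM, and then 127, 141 and 126 CPM, with a fall of -0.57 ± 0.16 (adjusted p = 0.011) that was -0.75 ± 0.13 (adjusted p = 0.00044) without line 19 at day 2. Thoc3 fell over this step in the controls (log2 fold change -0.55 ± 0.15, adjusted p = 0.0091).

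The last group acts where the messenger leaves the pore. Rae1, a partner of Nup98 in messenger export, had the highest level per length, 78.7 ± 6.0 CPM per 1000 bases in the day 0 controls. It measured 145, 141 and 125 CPM in the day 0 controls and 146, 147 and 117 CPM in the knockouts, then 113, 110 and 123 CPM against 106, 158 and 118 CPM, and then 85.0, 82.9 and 91.7 CPM against 89.1, 88.8 and 88.3 CPM. It fell from day 2 to day 3 in the knockouts (log2 fold change -0.52 ± 0.15, adjusted p = 0.014), and by 0.35 ± 0.11 (adjusted p = 0.025) without line 19 at day 2.

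Gle1, which activates the helicase that strips Nxf1 from the messenger (chr2:29935426-29960371), fell from day 0 to day 2 by 0.59 ± 0.11 log2 units in the controls (adjusted p = 0.00069) and 0.53 ± 0.11 in the knockouts (adjusted p = 0.0016). Against the controls it was higher at day 3 by 0.37 ± 0.11, which did not pass (adjusted p = 0.062), although it passed without line 19 at day 2 (0.36 ± 0.08, adjusted p = 0.011). Ddx19a, one of the helicases, fell from day 0 to day 2 in both genotypes. It lies beside its near-identical paralog Ddx19b on chromosome 8 (chr8:110974996-110997800 and chr8:111003188-111031751), so the counts of both are uncertain. Ddx19a measured 86.0, 87.4 and 95.7 CPM in the day 0 controls, 57.3, 54.8 and 54.3 CPM at day 2 and 69.5, 61.1 and 68.7 CPM at day 3. The knockouts measured 93.9, 77.7 and 68.6 CPM, then 55.0, 38.6 and 42.6 CPM, and then 76.5, 69.0 and 51.3 CPM. The fall was -0.70 ± 0.16 in the controls (adjusted p = 0.0038) and -0.81 ± 0.16 in the knockouts (adjusted p = 0.0013). The rise from day 2 to day 3 in the knockouts (0.52 ± 0.16, adjusted p = 0.023) was not called without line 19 at day 2 (0.39 ± 0.15, adjusted p = 0.065).

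Over the whole list, the called changes between days were falls, with 1 exception. From day 0 to day 2, 6 of 43 genes (14.0%) were called in the controls, all lower, where 35.2% of all genes were called and 15.5% were called lower. They were Rcc1, Nxf1, Thoc3, Alyref, Ddx19a and Gle1. In the knockouts 10 genes (23.3%) were called lower, where 35.9% of all genes were called and 15.1% were called lower. The calls of Alyref, Ddx19a and Gle1 in the controls held when any 1 replicate was left out, while those of Rcc1, Nxf1 and Thoc3 did not when HM1 replicate 1 (adjusted p = 0.12, 0.26 and 0.10) or HM1 replicate 2 (adjusted p = 0.077, 0.14 and 0.087) was. Of the 6 fits that left out 1 replicate, Rcc1 was called in 4, Nxf1 in 2 and Thoc3 in 3. In the knockouts, those of Kpna1, Ddx19a and Gle1 held when any 1 replicate was left out. The calls of both genotypes shared Rcc1, Nxf1, Alyref, Ddx19a and Gle1, which are 5 of the 6 control calls and 5 of the 10 knockout calls.

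From day 2 to day 3, 7 genes (16.3%) were called in the controls, all lower, where 21.4% of all genes were called and 8.92% were called lower. They were Kpna2, Tnpo3, Ipo5, Xpo5, Xpot, Nxf1 and Ddx39b. The log2 fold change was negative for 40 of the 43 genes, with a median of -0.33, against a median of 0.00 over all genes. Each of the 7 calls was lost when any 1 control replicate was left out, with adjusted p from 0.051 (Nxf1 without line 1A4) to 0.34 (Kpna2 without HM1 replicate 2). In the knockouts Nxt1, Thoc5, Ddx39b and Rae1 were called lower and Ddx19a higher, where 33.6% of all genes were called and 16.0% were called lower. The calls of Ddx39b and Rae1 in the knockouts held when any 1 replicate was left out. Both genotypes had the call of Ddx39b, with log2 fold changes of -0.43 ± 0.14 in the controls (adjusted p = 0.038) and -0.63 ± 0.14 in the knockouts (adjusted p = 0.0033). With the replicate block, which pairs the samples of a line over days, the control calls of Ddx39b (adjusted p = 0.054) and Xpo5 (adjusted p = 0.062) and the knockout call of Nxt1 (adjusted p = 0.08) were lost.

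Leaving out line 19 at day 2 raised these counts. The controls then had 18 of 43 genes called from day 0 to day 2, with Ipo9 and Xpot higher and 16 lower. From day 2 to day 3 they had 23 of 43 called lower. Of all genes, 46.2% and 32.2% were called in these steps, counting both directions. The knockouts had 15 called lower in the first step and 13 called lower in the second. Of all genes, 39.0% and 32.0% were called there, again in both directions. The share of all genes called lower was not computed without this sample. The change of the knockout difference was called for 0 of 43 genes by edgeR in both steps, where 0.0219% and 0.0383% of all genes were called. In each step 2 of the 43 had an unadjusted p below 0.05, and DESeq2 called 0.

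**Figure D4:**
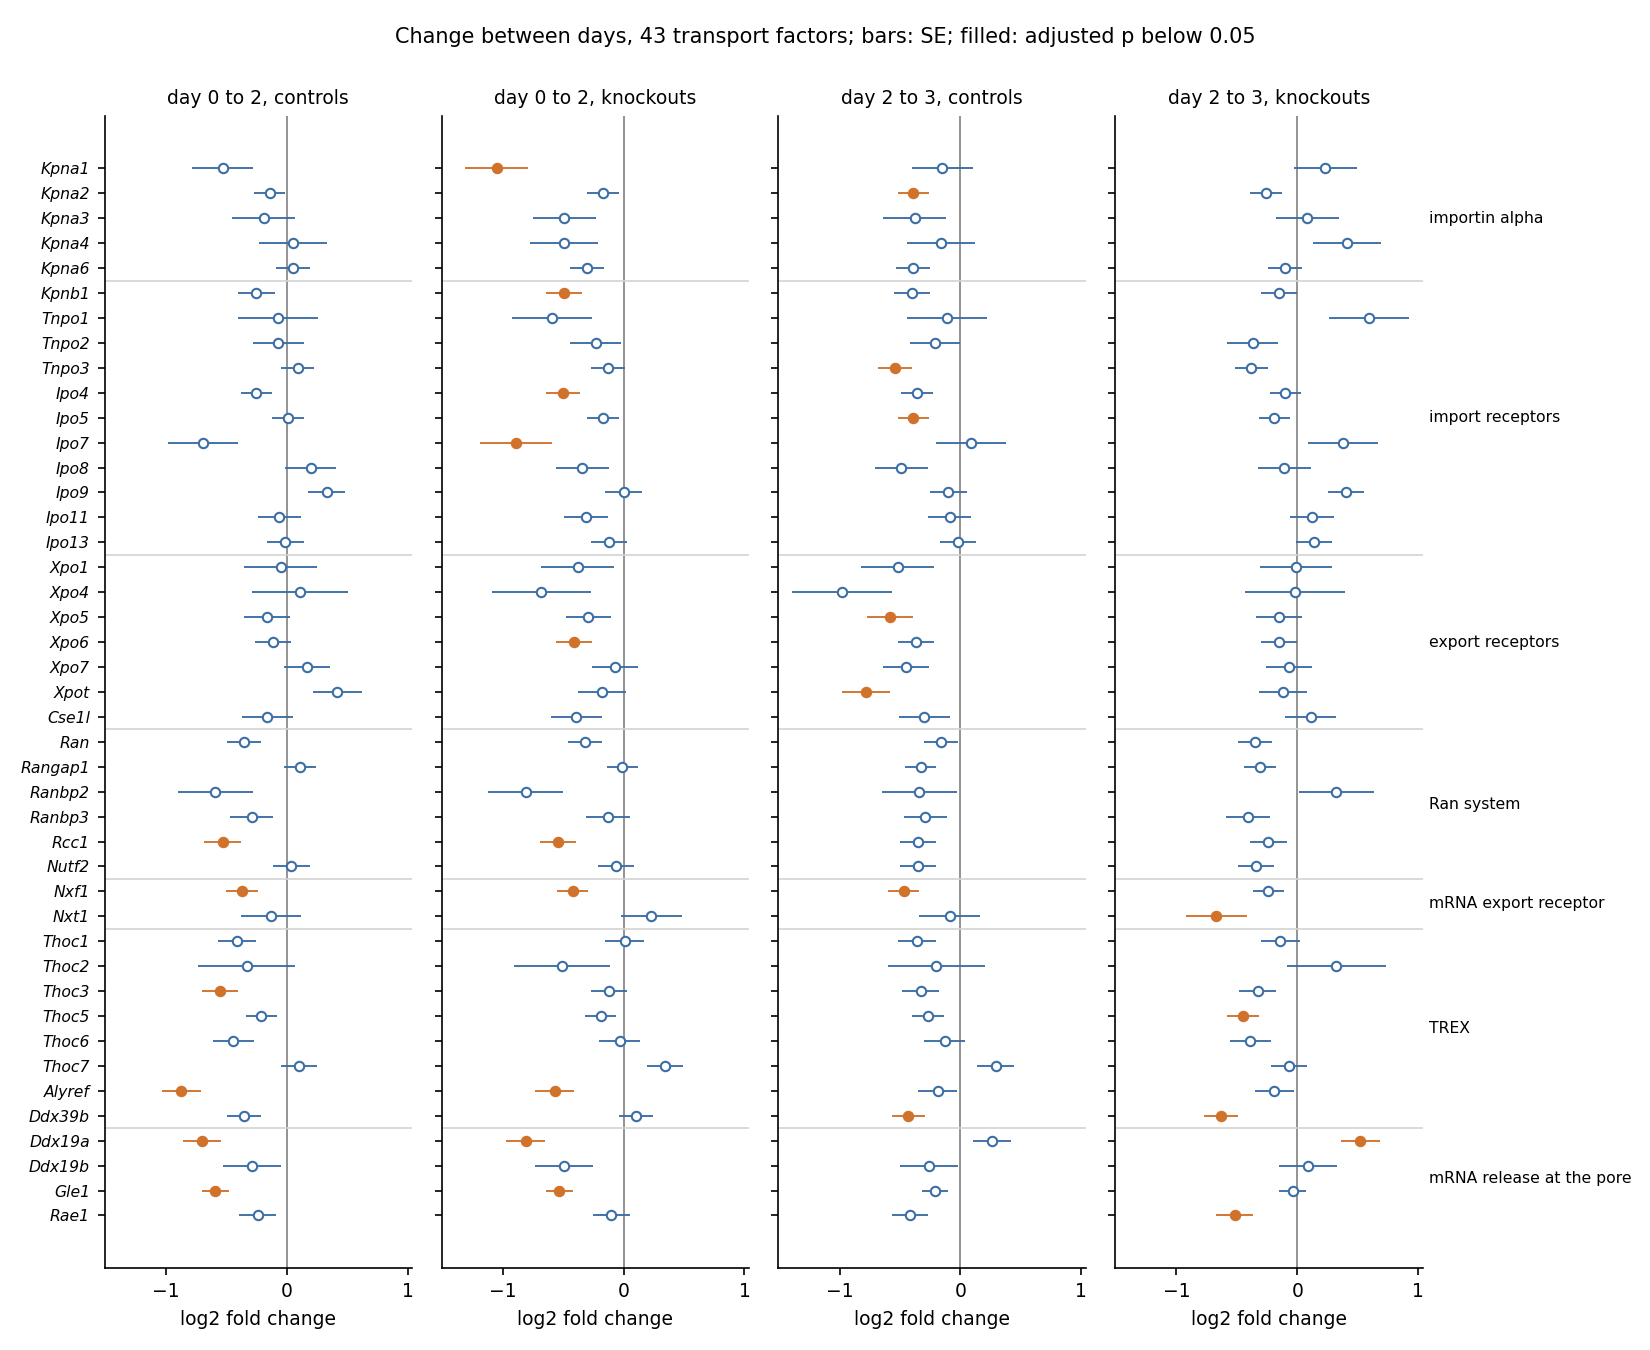
Log2 fold change between days (x axis) for the 43 tested genes in controls and knockouts, grouped by role. Bars are standard errors, and filled points have an adjusted p below 0.05. All filled points lie below 0 except Ddx19a from day 2 to day 3 in the knockouts.

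The difference of line 19 at day 2 from its HM1 controls followed transcript length. Of the 15 transport genes counted on a transcript of at least 5000 bases, all 15 were lower in that sample, with a median log2 difference of -1.30 and values from -2.64 to -0.58. Of the 11 on a transcript under 2500 bases, 9 were higher, with a median of 0.49. The same 15 long transcripts had medians of -0.04 in line 14 and 0.04 in line 319 at day 2. Across genes, the correlation of this difference with log transcript length was -0.56 over 11251 genes and -0.74 over the 43 in line 19, and between -0.16 and 0.21 for the 43 in the other lines at day 2. These points share 1 library and are a description. The part of transcript length in the calls was not tested beyond leaving the sample out. Ddx39b is counted on 2848 bases, the 13th shortest of the 43 (937 to 15121 bases, median 4134), and was 1.15 log2 units higher in this sample.

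**Figure D5:**
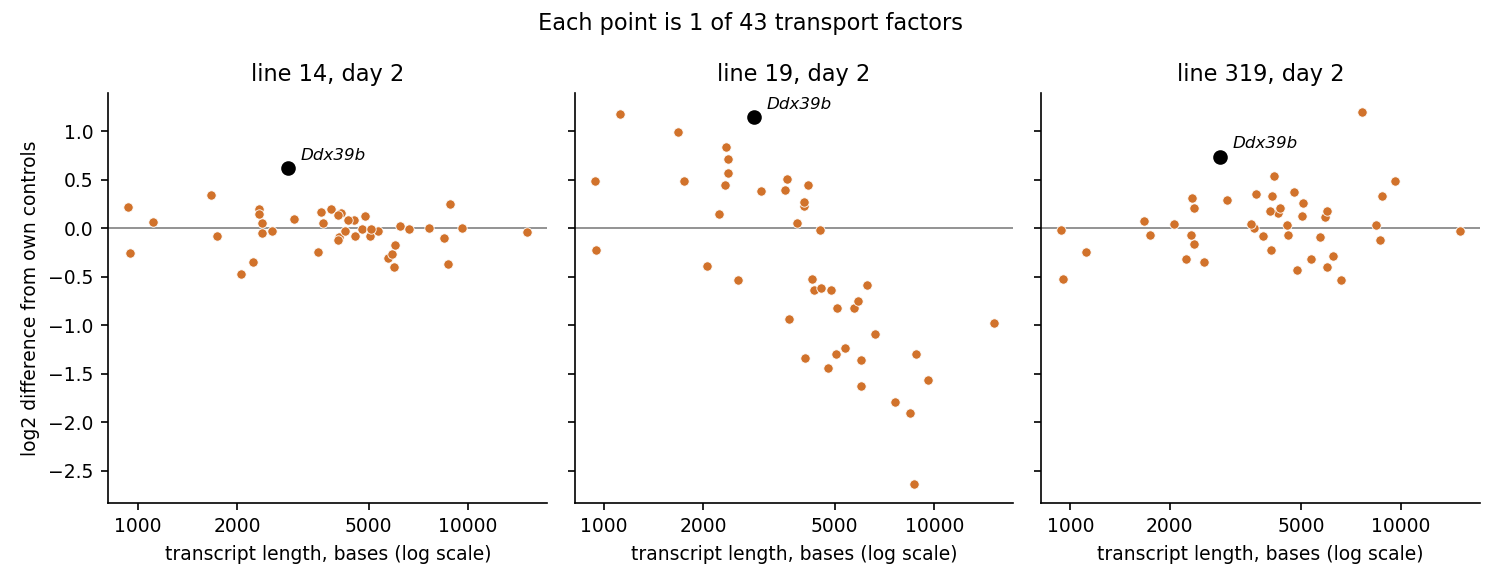
Log2 difference of each knockout line from the controls of its own background at day 2 (y axis) against transcript length (x axis, log scale) for the 43 tested genes, with Ddx39b in black. In line 19 the points fall with length, from a median of 0.49 under 2500 bases to -1.30 at 5000 bases or more.

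Some members lie on chromosomes whose genes differed as a whole between lines. On chromosome 11, which carries Kpna2, Kpnb1, Xpo1, Thoc5 and Alyref, the median gene was 0.14 to 0.33 log2 units below the controls of the same background in all 3 knockout lines and on all days. The members there did not all follow it: at day 0 in lines 14, 19 and 319, Thoc5 differed from its own controls by -0.23, -0.20 and -0.10 log2 units, Kpna2 by -0.27, -0.27 and -0.17, Alyref by -0.16, -0.30 and -0.15, Kpnb1 by 0.01, -0.04 and -0.06, and Xpo1 by 0.13, 0.13 and -0.44. At day 3 the chromosome 11 medians were -0.32, -0.33 and -0.26. Thoc5 then differed by -0.30, -0.32 and -0.38, Kpna2 by -0.35, -0.14 and 0.08, and Alyref by 0.04, 0.19 and 0.04. Kpnb1 differed by 0.03, 0.08 and -0.19, and Xpo1 by -0.13, 0.36 and 0.15. Over the 17 alternatives the Thoc5 log2 fold change at day 3 ranged from -0.36 to -0.02. That of Kpna2 at day 0 ranged from -0.32 to -0.03. On chromosome 8, with Tnpo2, Nutf2, Ddx19a and Ddx19b, the median was 0.42 to 0.57 below line 1A4 in line 319, although its label gives an extra copy, and 0.20 to 0.37 below HM1 in line 19. Tnpo2 in line 319 differed from line 1A4 by -0.45, -0.43 and -0.89 at day 0, day 2 and day 3. With the median of each chromosome taken out of every sample, Ddx39b kept its calls (adjusted p = 0.0042 at day 2 and 0.0071 at day 3) and Thoc1 at day 3 lost its call (0.57 ± 0.18, adjusted p = 0.083). This alternative was chosen after seeing the data.

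Of 35 further genes of nuclear transport and messenger RNA export that are outside the list, among them TREX-2, cap-binding and SR-adaptor genes, 32 were tested. Against the controls, 0 were called at day 0 and at day 2 and 1 at day 3, with medians of 0.03, 0.12 and 0.13. The gene called was Srrt, whose product ARS2 binds the nuclear cap-binding complex. It measured 132, 127 and 166 CPM in the day 3 controls and 224, 244 and 198 CPM in the knockouts, a log2 fold change of 0.65 ± 0.14 (adjusted p = 0.018). Between days the controls had 1 of the 32 genes called higher and 7 lower in the first step and 6 lower in the second. Of all genes, 35.2% and 21.4% were called in these steps, and 15.5% and 8.92% were called lower. The knockouts had 2 higher and 9 lower, and then 9 lower. Of all genes, 35.9% and 33.6% were called there, and 15.1% and 16.0% were called lower.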

How the data were processed

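Per the labels, polyadenylated RNA of 18 biological samples was taken up with oligo(dT) and sequenced as 4 technical TruSeq stranded libraries each. What the authors deposited is a table of raw counts for Ensembl transcripts. The submitters' processing notes name bcl2fastq 2.17.1.14, STAR 2.4.0k, SAMtools, HTSeq and mm10. Their order, and which annotation or strand setting was used, are not given in the sources used here. Transcripts of 1 gene share their reads in these counts, so each gene was taken as its transcript with the highest total, named by GENCODE M21 on GRCm38 (108214 of 110379 identifiers matched; the rest held 1.44% to 2.48% of counts). Technical replicates were summed, since they differed no more than sampling noise (chi-square per degree of freedom 1.01 to 1.03, against 6.66 to 11.3 between the HM1 replicates). Libraries held 16.5 M to 54.4 M gene counts, which bounds counting error only.

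All 18 samples entered 1 edgeR 4.0.16 fit (R 4.3.3, limma 3.58.1) with TMM, filterByExpr, 6 groups and a term for background (11 residual degrees of freedom). Quasi-likelihood p-values were adjusted over 18273 genes and called below 0.05. CPM use TMM scaling. Line differences use log2(CPM + 0.5), and chromosome medians genes of at least 5 CPM. The fit was tried on simulated counts with known fold changes, the same dispersion for every gene and no differences between lines. That trial does not cover the spread between lines in these data. Alternatives were other scalings, tests (DESeq2 1.42.0), filters, transcripts, models and left-out samples. Named genes were those called between genotypes (or the 3 of smallest p), the importin alphas, and per role the most abundant and the most changed in the controls. The members and lists were chosen with earlier results of these data known. Samples of a line are paired over days by design, and their deviations correlated above 0.1 in 16 of 18 pairs. The labels call the HM1 samples biological replicates without naming cultures, so p-values measure the spread between these samples.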

Additional observations from a re-analysis of the deposited data

How the results depend on the processing

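None of the 31 called fold changes changed sign under any of the 17 alternatives, while 125 of the 356 that were not called did under at least 1. Of the 884 recomputed values of fold changes printed in the report or called, 727 kept their direction and side of the threshold, 118 lost the call, 31 gained it and 8 changed sign. The 8 were the uncalled Nxf1 differences between genotypes: at day 0 from 0.03 to -0.00 with chromosomes centred and below 0 without HM1 replicate 2 or line 19 (range over left-out replicates -0.02 to 0.09); at day 2 from -0.02 to 0.10 with the sum of transcripts, to 0.06 in HM1-derived lines alone and to 0.00 or above without line 1A4, 14 or 319 (range over left-out replicates -0.17 to 0.09). The numbers of members called in the report (0, 1 and 2 between genotypes at day 0, day 2 and day 3; 6 and 7 in the control steps; 10 and 5 in the knockout steps) moved as follows. Without line 19 at day 2 they were 3 at day 0 and 8 at day 3, 18 and 23 in the control steps and 13 in the second knockout step. DESeq2 gave 1, 3 and 4 between genotypes, 10 and 14 in the control steps and 9 in the second knockout step. HM1-derived lines alone gave 0 at day 2 and day 3 and 1 in the second control step. With each day fitted alone, day 2 gave 0 and day 3 gave 6. Without the filter on low counts, day 3 gave 1, the second control step 3 and the first knockout step 6. Day 3 gave 1 with the sum of transcripts, without the background term, and with chromosomes centred, the last chosen after seeing the data. Leaving out each replicate gave 0 to 1, 0 to 2 and 0 to 5 between genotypes, 3 to 16 and 0 to 26 in the control steps, and 4 to 15 and 3 to 14 in the knockout steps. Leaving out any 1 control series gave 0 at day 2, at day 3 and in the second control step; the highest counts came without line 19, except 15 in the first knockout step, without line 319, and 2 at day 2, without line 14 or line 319. With the replicate block (series as a fixed term between days and as a random one between genotypes) the counts were 0, 1 and 3 (Gle1 added at day 3), 6 and 5 (Xpo5 and Ddx39b lost), and 10 and 4 (Nxt1 lost). RLE scaling and the longest transcript kept every count within 1.5 times. The cause of each change was not tested.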
